A study of Mus musculus with 12 samples.

Results

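The 500 widest H3K27ac intervals of untreated mouse cardiac progenitors were taken from 67463 intervals, and are called wide domains here. They were chosen by width in the peak list of the control cells alone: sub-peaks with the same start and end were collapsed into 1 interval, the intervals were ranked by width, and ties were settled by the higher fold enrichment. The cells were of the line GLI1-FTA, made in the A2Lox.cre mouse embryonic stem cell strain, and had been differentiated toward the heart until day 6. In the dox group, overexpression of GLI1 was induced with doxycycline at 500 ng/ml for 24 hours, starting on day 5. The control group was the same line, left untreated, so all cells came from 1 line. The series holds 12 samples in 6 groups of 2, in which H3K27ac chromatin immunoprecipitation (ChIP), GLI1 pull-down and input were each sequenced in both conditions. The peak lists pool the replicates of a group, so every value below is 1 value per condition, with no error between replicates and no test.

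H3K27ac is an acetyl mark on the tail of histone H3 that p300 and CBP place at active promoters and enhancers. Most acetylated stretches are short, and long unbroken ones, often called stretch enhancers or super-enhancers, tend to lie at genes that define a cell type or are highly transcribed. GLI1 is a transcription factor of the Hedgehog pathway, which acts in progenitors of the second heart field. In these data an interval is a called stretch of acetylation, and fold enrichment is the height of its highest summit over the local background, as the authors' peak caller gave it.

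The wide domains measured 5674 to 26877 bp, with a median of 6965.5 bp, against a median of 488.0 bp in the other control intervals. They made up 0.741% of the control intervals and 6.59% of the acetylated bases (3.94 of 59.9 Mb). Each held 7 to 50 summits (median 13), and the highest summit had a control fold enrichment of 10.4 to 66.0 (median 28.6), against a median of 4.49 in the other intervals. These values come from the list that chose the members and only describe them. The choice cut a smooth curve: the interval of rank 500 and the next 2 all measured 5674 bp and were ordered by fold enrichment, with 25.6 in the domain 64283 bp from Zfp281, 24.8 in the first interval left out, near Med13l, and 14.8 in the next, in Farp1.

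**Figure D1:**
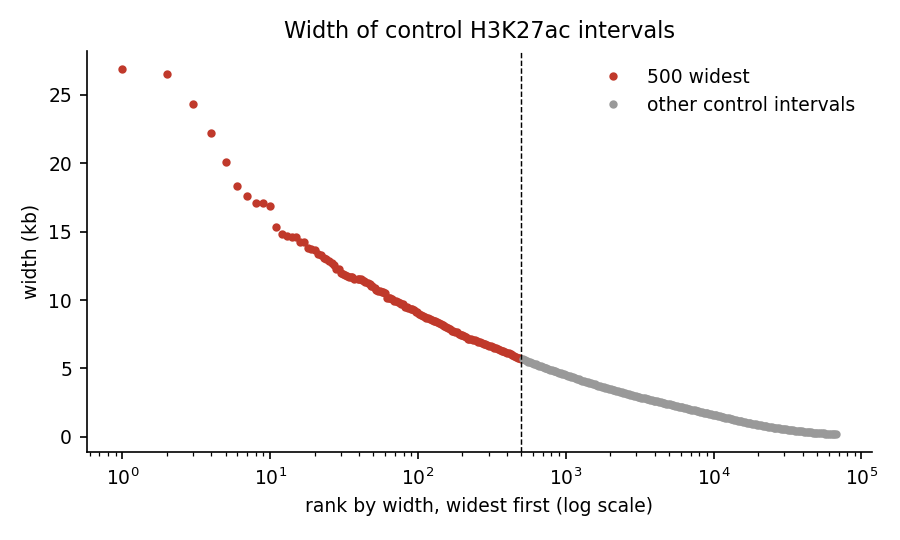
Width of control H3K27ac intervals in kb against their rank by width, on a log scale, with about 400 ranks drawn over the whole list. The widest reached 26.9 kb, and the dashed line marks rank 500, where the curve has no step.

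Promoters of 4 genes are shown because their domains stand for both outcomes in dox cells. Those of Amotl2, which encodes an angiomotin that binds the Hippo effector YAP, and of Ajuba, a LIM protein of the same pathway, lay in domains that dox intervals covered for the most part. Those of Hand2, a bHLH factor of the second heart field and right ventricle, and of Sp5, a zinc finger factor induced by Wnt signals, lay in domains with gaps in their cover. Each sequence is RefSeq's 300 bases (GRCm38.p6), 250 before and 50 after the start, on the gene's strand. Capitals mark the letters GGAATG of TEAD factors in the first pair and AGATAA of GATA factors in the second, or their reverse complements. Only promoters that hold the letters were shown, so the pairs do not link a motif to an outcome. The TEAD letters are also in a promoter of Ahnak, in a domain that was 64.2% covered. The GATA letters are also in a promoter of Csrnp1, in a domain that was 98.5% covered. The positions are chr9:102717554-102717853 for Amotl2, chr14:54577612-54577911 for Ajuba (minus strand), chr8:57320733-57321032 for Hand2 and chr2:70474673-70474972 for Sp5.
Amotl2 promoter: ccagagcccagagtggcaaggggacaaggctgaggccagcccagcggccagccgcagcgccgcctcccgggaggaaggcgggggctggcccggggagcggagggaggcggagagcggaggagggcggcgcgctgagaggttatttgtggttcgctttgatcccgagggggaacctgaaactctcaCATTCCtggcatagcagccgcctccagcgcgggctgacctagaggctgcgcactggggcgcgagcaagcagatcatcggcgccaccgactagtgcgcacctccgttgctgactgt
Ajuba promoter: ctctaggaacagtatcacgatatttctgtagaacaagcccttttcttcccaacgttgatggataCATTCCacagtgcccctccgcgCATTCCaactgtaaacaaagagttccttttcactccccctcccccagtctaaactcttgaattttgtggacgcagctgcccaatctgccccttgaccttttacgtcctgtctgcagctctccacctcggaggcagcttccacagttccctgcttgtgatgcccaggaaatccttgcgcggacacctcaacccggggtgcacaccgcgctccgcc
Hand2 promoter: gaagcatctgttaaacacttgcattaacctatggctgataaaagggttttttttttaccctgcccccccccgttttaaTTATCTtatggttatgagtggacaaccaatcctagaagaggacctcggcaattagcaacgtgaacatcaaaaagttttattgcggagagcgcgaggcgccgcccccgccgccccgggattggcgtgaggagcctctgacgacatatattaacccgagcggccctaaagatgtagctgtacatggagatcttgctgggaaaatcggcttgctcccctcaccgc
Sp5 promoter: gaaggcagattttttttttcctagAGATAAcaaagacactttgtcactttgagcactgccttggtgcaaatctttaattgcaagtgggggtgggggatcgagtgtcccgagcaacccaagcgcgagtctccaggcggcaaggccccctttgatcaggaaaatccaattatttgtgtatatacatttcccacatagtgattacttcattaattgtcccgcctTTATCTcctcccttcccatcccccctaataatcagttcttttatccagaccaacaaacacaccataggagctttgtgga

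Mature microRNAs of 2 domains are shown because these microRNAs are known from cardiac progenitors and mesenchyme and their hairpins lie inside the acetylated stretch. The domain of rank 43 on chromosome X held the hairpins of miR-322 and miR-503, 2 related microRNAs, and the one of rank 350 on chromosome 1 held miR-199a in the host transcript Dnm3os. Capitals mark the seed, bases 2 to 8, and the sequences are RefSeq's.
mmu-miR-322-5p: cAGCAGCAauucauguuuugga
mmu-miR-503-5p: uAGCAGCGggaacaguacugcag
mmu-miR-199a-3p: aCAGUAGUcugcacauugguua
mmu-miR-199a-5p: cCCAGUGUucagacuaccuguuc

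The seeds of miR-322-5p and miR-503-5p were AGCAGCA and AGCAGCG, while both arms of miR-199a had seeds of their own. In dox cells 68.4% of the bases of the miR-322 domain and 98.2% of those of the miR-199a domain were covered. Of the hairpins whose mature sequences are in RefSeq's table, 7 lay in 6 wide domains, and the others belonged to miR-3089, miR-1895, miR-7671 and miR-7655. The gene annotation places further microRNA genes in wide domains, namely Mir351, Mir1903, Mir143 and Mir145a.

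The cardiac label was only partly borne out by the marks at defining genes. An H3K27ac interval lay at 7 of 10 heart genes in control cells. Fold enrichment at Hand2 was 10.8 in dox and 24.5 in control cells, at Gata4 7.08 in dox and 11.0 in control cells, at Tnnt2 (troponin T) 3.74 in dox and 10.4 in control cells, and at Isl1 21.0 in dox and 20.2 in control cells. At Myh7 fold enrichment was 8.43 in dox and 15.4 in control cells, and at Ttn 3.15 in dox and 9.59 in control cells. Actc1 had an interval in control cells only (4.11). Neither list had an interval at Nkx2-5, Tbx5 or Myh6. Of these 10 genes only Hand2 lay in a wide domain, while Gata4 and Isl1 stood at ranks 889 and 938. No interval was listed in either condition at Pou5f1, Zfp42, Sox1, Pax6, Olig2, Gata1, Sox17, Afp or Epcam, which mark other cell types. Some markers of other types did have one: Nanog had 7.87 in dox and 12.8 in control cells, Pecam1 14.7 in dox and 13.2 in control cells, and Esrrb 4.72 in dox and 12.1 in control cells. The endothelial Tek had 14.0 in dox and 14.6 in control cells and the blood factor Spi1 4.32 in dox and 9.61 in control cells, while Foxa2, Cdh5 and Tal1 had an interval in dox cells only. The analysed markers of smooth muscle and mesenchyme had an interval in both conditions. Acta2 had 18.1 in dox and 24.3 in control cells, and Col1a1 6.23 in dox and 22.2 in control cells. Twist1 had 22.9 in dox and 22.5 in control cells. These control values were above those of all the heart genes except Hand2. Acta2 and Col1a1 lay in wide domains, and Myh11 was not analysed. The read depth is unknown. The uniform background behind the fold values came to 3.63 reads in dox and 2.83 in control cells, a ratio of 1.28.

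**Figure D2:**
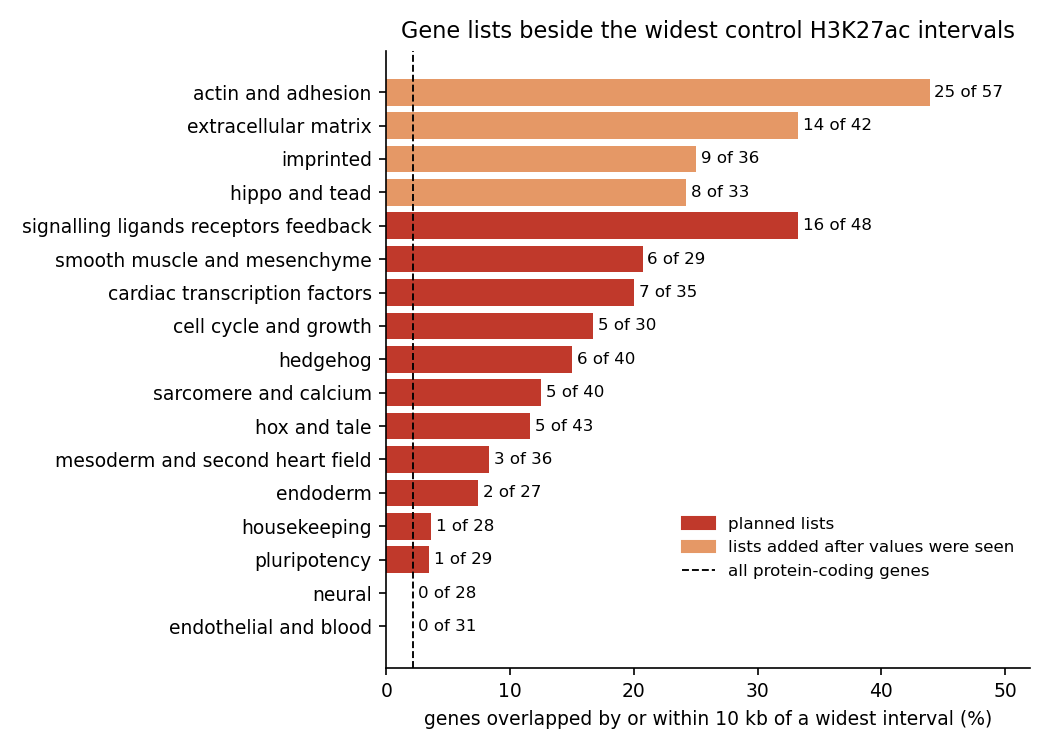
Share of each gene list overlapped by or within 10 kb of one of the 500 widest control intervals, with the number of genes beside each bar. The dashed line is the share of all protein-coding genes, 2.18%. The endothelial and blood list and the neural list stood at 0, which in lists this short cannot be told from that share. The imprinted, Hippo and TEAD, actin and adhesion and extracellular matrix lists were added after the values had been seen.

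Among the planned lists, the share of genes within 10000 bp of a wide domain was highest for signalling, mesenchyme and cardiac regulation. Of 20744 protein-coding genes analysed, 2.18% were overlapped by a wide domain or lay within 10000 bp of one. The share was 16 of 48 (33.3%) for signalling ligands, receptors and feedback genes, 6 of 29 (20.7%) for smooth muscle and mesenchyme and 7 of 35 for cardiac transcription factors. It was 5 of 30 (16.7%) for cell cycle and growth, 6 of 40 (15.0%) for the Hedgehog pathway and 5 of 40 (12.5%) for sarcomere and calcium handling. Hox and TALE genes had 5 of 43 (11.6%), mesoderm and second heart field 3 of 36 (8.33%) and endoderm 2 of 27 (7.41%). The share was 1 of 29 (3.45%) for pluripotency and 1 of 28 (3.57%) for housekeeping genes. It was 0 of 28 for the neural list and 0 of 31 for the endothelial and blood list. In lists this short, 0 cannot be told from the share of all genes. Long genes are more easily overlapped. Counting only domains within 1000 bp of a gene end, the share was 0.81% of all genes. For the first 6 lists named it was 14 (29.2%), 4 (13.8%), 7 of 35, 2 (6.67%), 4 (10.0%) and 4 (10.0%), in the same order. Within 50000 bp it was 4.22% of all genes, and 17 (35.4%), 8 (27.6%), 8 (22.9%), 8 (26.7%), 7 (17.5%) and 6 (15.0%) for them, so that cell cycle and growth genes then stood above cardiac transcription factors. Within that distance the endothelial and blood list had 1 of 31 (3.23%) and the neural list 0 of 28. These shares describe the choice of members and are not tested.

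The 20 widest domains lay at genes of varied function. The widest, at Unc5b, a netrin receptor gene (chr10:60804681-60831557), held 3 GLI1 sites, had a fold enrichment of 43.5 in dox and 56.3 in control cells, and was 94.9% covered by dox intervals. The second, in Ddc, the gene of aromatic amino acid decarboxylase (chr11:11819650-11846193), measured 26544 bp and had 39.1 in dox and 60.7 in control cells, with 97.9% covered. The third lay in Arid3b, a DNA-binding protein gene, and was 93.5% covered. The fourth, 46085 bp from the tropomyosin gene Tpm1, broke into 13 dox intervals, the most of any wide domain, and was 76.5% covered. The fifth, at Amotl2 (chr9:102712979-102733069), was 20091 bp wide and 93.5% covered. The sixth, at Ahnak, a giant scaffold protein gene, had 20.9 in dox and 43.4 in control cells and was 64.2% covered, the lowest of the 20.

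The rest of the 20 widest were covered to between 77.1% and 100% in dox cells. They lay at or in the genes of Kirrel, an adhesion protein, Ifitm10, Usp29, an imprinted gene, Septin11, a filament-forming GTPase, Crb2, a polarity protein, Hspg2, the basement membrane proteoglycan perlecan, Smad7, an inhibitory SMAD, and Bcar1, an adhesion scaffold. Others lay at a distance, as in the domain 26688 bp from Il17b, 174532 bp from Bmp4 and 40099 bp from Ssbp3. For 3 of the 20 the nearest gene was not analysed here. The domain near Il17b (chr18:61646595-61661246) overlaps Carmn, the host transcript of the smooth muscle microRNAs miR-143 and miR-145. It was 100% covered in dox cells and held 2 GLI1 sites, and its fold enrichment was 55.3 in dox and 57.5 in control cells.

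Some genes were nearest to several wide domains. Some of these domains are neighbours split by a short gap. In Actn4 the domain of rank 34 ends at 28950330 and that of rank 104 starts at 28950385, and 1 dox interval of 18709 bp overlaps both. The counts per gene were not compared with those of other intervals. The nearest genes numbered 409, of which 21 were nearest to 3 or more domains and 45 to 2. Tead1, the gene of a transcription factor partner of YAP, was nearest to 6 domains that covered 43.3 kb in all. Their log2 ratios (dox over control, relative to the median of the overlapped control intervals) ran from -1.27 to 0.61. Msi2, an RNA-binding protein gene, was nearest to 4 domains, with ratios of -1.51 to -0.22. With 3 each stood Actn4 (an actinin), Ahnak, Ddc, Hspg2, Gpc3 (a glypican), Irs2 (an insulin receptor substrate), Igf2r, Trim71, Cald1 (caldesmon), Pkdcc and Mrpl23, as well as Cdrt4, Lao1, Irf2bp2, Lrrfip1, Rgs3 and Slf2. The lowest ratios among their domains were -1.82 in Cdrt4, -1.49 at Ahnak, -1.43 near Slf2, -1.38 in Lrrfip1 and -1.22 near Lao1. The 3 domains nearest to Mrpl23, beside the imprinted genes Igf2 and H19, were 97.9% to 100% covered in dox cells.

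By position, 149 wide domains (29.8%) lay within 1000 bp of a gene end, 222 (44.4%) inside a gene and 129 (25.8%) between genes. Around a start site the domains reached further downstream than upstream, on the strand of the gene. In the 105 domains with the start of 1 gene only, a median of 2349 bp lay upstream and 4866 bp downstream, and the downstream side was longer in 75 (71.4%). The 134 annotated promoters inside the domains, of 108 genes, had a median GC content of 61.7%, against 62.3% in those inside other control intervals. Their ratio of observed to expected CpG was 0.69, against 0.82, and over all 21263 promoters it was 0.57. The median GC content over all promoters was 56.3%.

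Motif letters were counted in these promoters and in all promoters. The TEAD letters GGAATG, on either strand, were in 29 of the 134 (21.6%), against 13.6% of all promoters of the same length. The GATA letters AGATAA were in 7 (5.22%), against 9.65%, and the GC box GGGGCGGGG in 28 (20.9%), against 15.4%. The E-box CAGCTG was in 14.9%, against 15.6%, and TATAAA in 8.21%, against 12.6%. These shares were not matched for GC content, which differed between the 2 sets. They were not set beside promoters in other control intervals, so they are not shown to be particular to the wide domains. The GLI letters TGGGTGGTC were in 0 of the 134 and in 0.179% of all. The CArG box and the MEF2 motif, each searched as 1 fixed string, were also in 0, against 0.094% and 0.146% of all. With strings this rare, 0 of 134 cannot tell these promoters from all promoters. The TEAD letters begin 65 bases before the start of Amotl2, and Ajuba has them at 2 places. A match is only a string of letters in this window. Of the genes with the TEAD letters several encode parts of the contractile cytoskeleton or its matrix, among them Acta2, Tpm1, Flnc and Col3a1, which were chosen after the matches were seen.

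In dox cells the wide domains largely remained acetylated. The median domain had 90.3% of its bases covered by dox intervals (quartiles 78.7% and 97.1%), and together 85.4% of their bases were covered. At least 90% was covered in 257 domains (51.4%), against 31.4% of all control intervals, and under 50% in 29 (5.80%), against 47.3%. Complete cover was found in 43 (8.60%), against 20.3% of all control intervals. No wide domain was without a dox interval, whereas 38.2% of the other control intervals were. A short interval is easily covered wholly or not at all, so the next 500 intervals by width are the nearer comparison. There the median was 87.8%, with 217 at least 90% covered and 31 under 50%, close to the wide domains. Of these next 500 intervals, 64 (12.8%) were completely covered and 0 were without a dox interval.

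**Figure D3:**
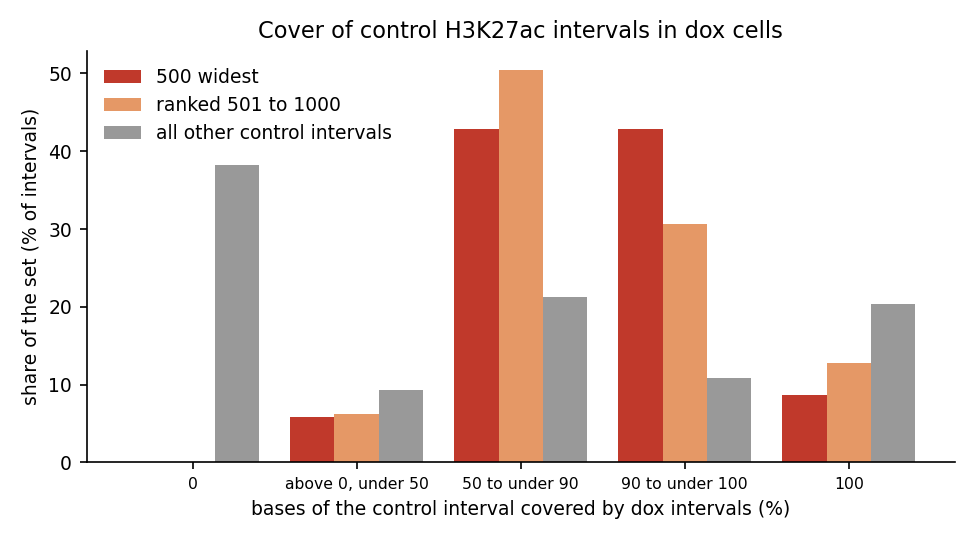
Share of intervals in each set by the percent of their bases covered by dox H3K27ac intervals. The 500 widest control intervals and the next 500 (ranks up to 1000) have no member at 0, where 38.2% of all other control intervals lie.

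The dox list often had several intervals within 1 wide domain. In 162 domains a single dox interval overlapped, in 270 there were 2 to 4, and in 68 there were 5 or more. In the next 500 intervals by width these counts were 200, 283 and 17. One of the 500 widest dox intervals overlapped 237 wide domains (47.4%), against 61 (12.2%) of the next 500 intervals and 1.5% of all control intervals. Among the wide domains this share went down with rank, with 65 of the 100 widest, and 57, 45, 41 and 29 in each later 100.

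The height of the acetylation was lower in dox cells in more wide domains than it was higher. Highest fold enrichment inside the domains had a median of 21.0 in dox cells and 28.6 in control cells. In bulk cultures, fewer cells with the mark and less of it per cell cannot be told apart. The log2 ratio of dox over control was centred on the median of all control intervals that a dox interval overlaps, which was -0.11. On this scale the wide domains had a median of -0.31 (quartiles -0.77 and 0.08), and 344 (68.8%) were below 0. At least 1, which is called higher here, was reached by 5 domains (1.00%), against 7.48% of the 38025 control intervals that hold a dox summit. A ratio of -1 or less, called lower, was reached by 79 (15.8%), against 8.41% of the same intervals. Only intervals with a dox summit have a ratio. The 25596 control intervals without a dox interval are thus left out of these shares, whereas all 500 wide domains have a ratio. Among the next 500 intervals by width, 7 were higher and 115 lower, with a median of -0.44. Without centring 0.40% were higher. With the mean over all summits in place of the highest, 9.40% of the wide domains were lower, and of the 84 domains past the limit 35 stayed past it. The reads behind the summits were recovered from the fold and p values, and their 95% counting interval lay wholly below -1 in 19 domains, below 0 in 228 and above 0 in 60. Such intervals cover counting error only, and the labels name no molecular identifiers.

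The control values in this ratio come from the list that chose the members, so its direction is in part set by the choice. Taken the other way round, the 500 widest dox intervals had a median ratio of 0.30, with 103 higher and 6 lower. Their cover by control intervals had a median of 91.0%, but 106 (21.2%) were under 50% covered, 34 of them with no control interval, against 29 and 0 for the wide control domains under the dox list. The dox list is also the longer one, with 66.0 Mb against 59.9 Mb in the control list.

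**Figure D4:**
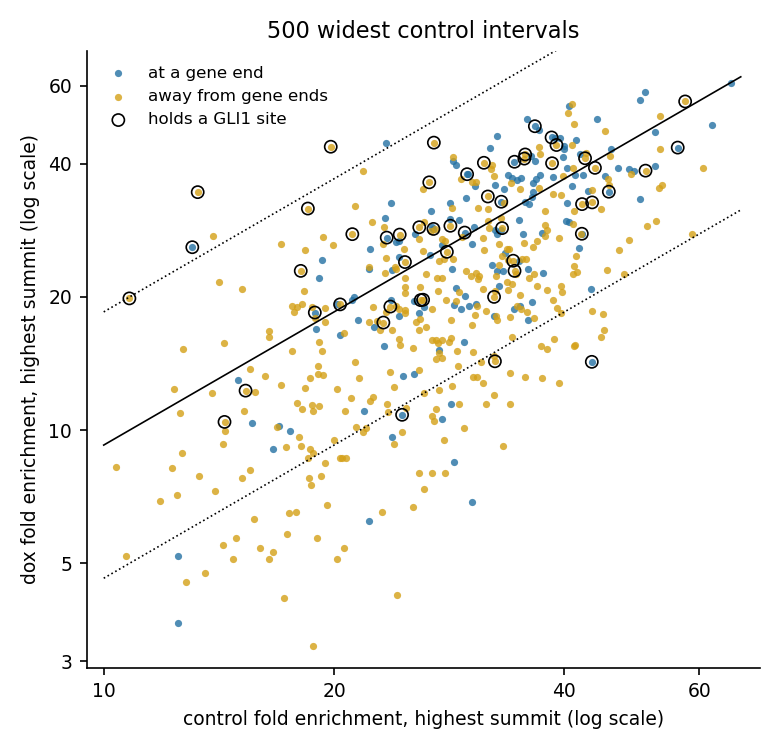
Highest H3K27ac fold enrichment in dox cells against that in control cells for the 500 widest control intervals, both on log scales. The solid line is the centre of all overlapped control intervals and the dotted lines a ratio of 2 either way. Of the 79 lower domains, 69 are away from gene ends.

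Domains at gene ends had more cover and higher ratios than those away from them. At gene ends the median cover was 94.9% and the median ratio -0.05, with 10 of 149 lower (6.71%). Away from gene ends the median cover was 88.3% and the median ratio -0.42, with 69 of 351 lower (19.7%). The same order held in the next 500 intervals, with 8.20% lower at gene ends and 27.8% away from them. It also held in all other control intervals that have a ratio, with 2.65% of 11369 lower at gene ends and 10.8% of 26156 away from them. The order is thus not particular to the wide domains.

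Of the 10 domains with the lowest cover 8 lay inside a gene, against 44.4% of all wide domains. The lowest cover was in Fhod3, the gene of a formin of the sarcomere (chr18:24860012-24866018), where 6.81% of the bases remained and fold enrichment was 3.24 in dox and 18.8 in control cells, a ratio of -2.42 that is also the lowest of the 500. At Sp5 15.9% remained, with 3.66 in dox and 12.5 in control cells. In Mylk4, a myosin light chain kinase gene, 23.4% remained, with 8.00 in dox and 27.9 in control cells. In Loxl1, a collagen and elastin cross-linking enzyme gene, 26.0% remained, with 5.12 in dox and 14.8 in control cells. Lhfp, Dnah2, Shb and Srd5a1, and a domain 157103 bp from Rnf32, kept 26.5% to 31.2%.

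The lowest ratios after Fhod3 were at a domain 29720 bp from Zbtb40 (4.24 in dox and 24.2 in control cells, ratio -2.40) and at Gfod1 (6.88 in dox and 30.3 in control cells, ratio -2.03). Lhfp, Dnah2 and Cdrt4 had -1.93, -1.87 and -1.82. One of the Meis1 domains had 6.70 in dox and 25.4 in control cells (ratio -1.81), and Vgll4, the gene of a TEAD cofactor, had 9.19 in dox and 33.2 in control cells (-1.74). Col1a1, which encodes a chain of type I collagen, had -1.72. With the mean over summits Col1a1 had -1.28, but Vgll4 (-0.85), Mylk4 (-0.33) and Loxl1 (-0.87) no longer passed the limit. None of the 29 domains under 50% covered held a GLI1 site, where 10.4% of all wide domains held one, and this was not tested.

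**Figure D5:**
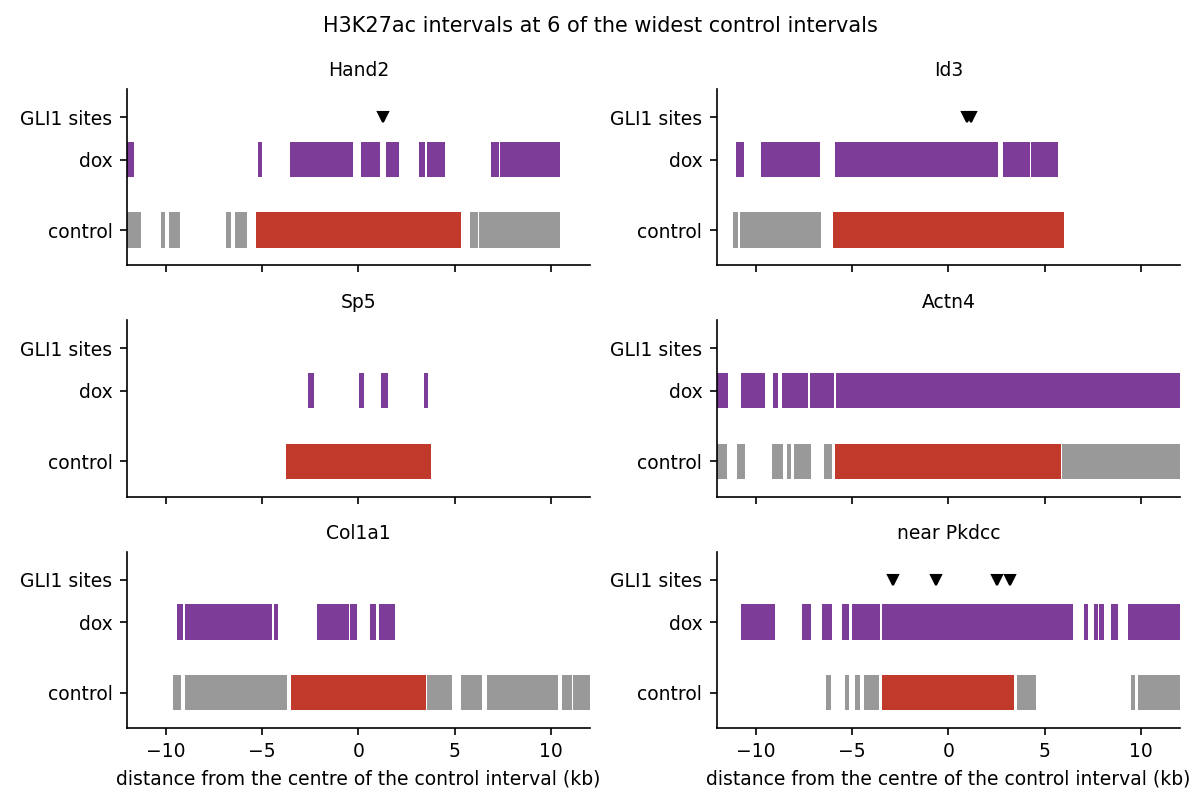
Called H3K27ac intervals in dox cells and in control cells around 6 wide domains (the wide domain in red, other control intervals in grey, dox intervals in purple), with GLI1 sites as triangles, against the distance from the centre of the domain in kb. At Hand2, Sp5 and Col1a1 the dox intervals leave gaps, with 60.4%, 15.9% and 45.0% covered, and at Id3, Actn4 and near Pkdcc they cover 93.8%, 99.8% and 100%.

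The cardiac transcription factor genes lay on both sides. Of the 12 wide domains at genes of that list, 4 were lower, against 15.8% of all wide domains. At Hand2 (chr8:57319256-57329853) 60.4% was covered, and fold enrichment was 10.8 in dox and 24.5 in control cells, a ratio of -1.07, and the domain held 1 GLI1 site. Beside Gata5, a GATA factor gene of endocardium and endoderm, it was 5.19 in dox and 12.5 in control cells (-1.16, or -0.67 with the mean over summits). Meis1, a TALE homeobox gene, had 2 domains with opposite behaviour. The one inside the gene had -1.81, and the one with its start site had 40.6 in dox and 36.6 in control cells (0.26) and was 97.4% covered. Tead1 likewise had 5 domains within reach, of which the lowest had 5.50 in dox and 14.3 in control cells (-1.27, or -0.83 with the mean over summits) and the highest 27.4 in dox and 19.4 in control cells (0.61). Meis2 had -0.53 with 95.5% covered. Smyd1, a muscle methyltransferase gene, had -0.61 with 65.6% covered.

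None of the 6 domains at genes of the sarcomere and calcium list, which does not hold Fhod3, passed the limit, where 15.8% of all wide domains were lower and 1.00% higher. At the start of Tpm1 fold enrichment was 31.3 in dox and 26.8 in control cells, with 93.2% covered. In Myom1, the gene of an M-band protein, it was 48.9 in dox and 62.3 in control cells with 100% covered, in a domain that also overlaps Myl12a. Near Ankrd1, a stretch-responsive gene, it was 23.5 in dox and 41.2 in control cells, and in Cacna1c, an L-type calcium channel gene, 13.2 in dox and 24.6 in control cells with 55.7% covered. Flnc had 19.6 in dox and 25.4 in control cells. The mesoderm list held Bmp4 (88.2% covered, ratio -0.42), Foxc1 (93.0%, -0.30) and Foxp1 (99.6%, -0.02).

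In the smooth muscle and mesenchyme list 1 of 8 domains was lower, near the 15.8% of all wide domains. It was the one at Col1a1, where fold enrichment was 6.23 in dox and 22.2 in control cells and 45.0% was covered. Col3a1, the type III collagen gene, had 40.4 in dox and 34.4 in control cells with 97.1% covered. In Pdgfrb, the gene of a platelet-derived growth factor receptor, it was 38.5 in dox and 21.8 in control cells (0.93) with 100% covered. Snai1, an epithelial-mesenchymal transition factor, had 47.7 in dox and 37.0 in control cells (0.48). Acta2, smooth muscle actin, had 18.1 in dox and 24.3 in control cells with 65.0% covered, and the 3 domains of Cald1 had -0.49 to 0.57.

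All 16 domains at signalling genes stayed within the limit, 12 were at least 90% covered, and the median ratio was 0.08. Over all wide domains 15.8% were lower, 1.00% higher and 51.4% at least 90% covered, and the median ratio was -0.31. Smad7 had 47.1 in dox and 52.6 in control cells, and Id3, a BMP-induced inhibitor of bHLH factors, 32.8 in dox and 33.1 in control cells with 2 GLI1 sites. Igf2 had 37.7 in dox and 41.3 in control cells, and the Fzd2 domain, at a Wnt receptor gene, 36.9 in dox and 36.7 in control cells. Bmp7 had 19.6 in dox and 23.7 in control cells, and Bmp4, another ligand, 24.1 in dox and 34.9 in control cells. The lowest of the list was Tgfb1, at -0.81.

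Genes of the Hedgehog pathway itself showed both signs. Sufu, the gene of the inhibitor that holds GLI proteins in the cytoplasm, had 19.8 in dox and 10.8 in control cells (0.99), with 100% covered and 2 GLI1 sites in the domain. Disp1, the gene of the protein that releases Hedgehog ligands, had 5.69 in dox and 18.98 in control cells (-1.62), with 38.5% covered. Gli2 and Gli3, the other GLI factor genes, had -0.56 and -0.91 with 76.7% and 65.9% covered. Mycn, a Myc family gene and known Hedgehog target, had -0.38 with 92.0% covered. Of 40 genes in that list, 6 (15.0%) lay within 10000 bp of a wide domain.

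The other planned lists had few domains. In the Hox and TALE list Hoxb2 and Hoxb3 shared a domain with 29.8 in dox and 29.1 in control cells. Of the pluripotency list Trim71, a let-7 target and growth regulator, had 3 domains with ratios of -0.17 to 0.31, all at least 86.1% covered. In the endoderm list Krt8 and Krt18, keratin genes, had domains at -0.52 and -0.24. In the cell cycle list 5 domains, at Ccnd3, Bcl2l1, Rb1, Mycn and Myc, had a median of -0.38 with none lower.

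Of 4 gene lists that were added after the values had been seen, actin and adhesion genes had the most domains. There 25 of 57 genes (43.9%) lay within reach of a wide domain, against 2.18% of all protein-coding genes. As the lists were added after values were seen, such shares are in part set by that choice. Of the 32 domains at these genes, 2 were lower, 1 (in Synpo) higher and 22 at least 90% covered. Actn4 had 3 domains at ratios of -0.29 to 0.08. In Lpp, a focal adhesion protein gene, fold enrichment was 16.0 in dox and 38.8 in control cells (-1.16), and in Sptbn1, a spectrin gene, 8.64 in dox and 20.8 in control cells (-1.15). With the mean over summits these were -0.58 and -0.94. Of the 18 extracellular matrix domains 4 were lower, against 15.8% of all wide domains, among them those at Col1a1, Loxl1 (-0.87 with the mean over summits) and Adamts2. Col4a1 had 0.45 and Lamb1 0.19. Of the Hippo and TEAD genes Ajuba had 0.28 and Ccn1 -0.09, and Vgll4 -1.74. Of the imprinted genes 9 of 36 lay within reach, some of them sharing a domain. Counting only domains within 1000 bp of a gene end, 3 of 36 did. Of their domains only the one in Grb10, a growth factor adaptor, was lower, with 9.51 in dox and 27.8 in control cells (-1.44).

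Wide domains with a GLI1 site had more cover and higher ratios than those without. The sites are 2605 places bound in dox cells and listed as holding a GLI motif. At least 1 lay in 52 wide domains (10.4%), against 0.872% of all control intervals. A wide interval holds more bases, and per Mb the domains had 19.5 sites, against 17.1 in the next 500 intervals and 10.4 in all other control intervals. The 129 domains between genes had 38.8 sites per Mb and those inside genes 10.2. With a site, the median cover was 97.8% and the median ratio 0.07, with 3 higher and 3 lower, and 18 of 52 were fully covered. Without one, the median cover was 89.1% and the median ratio -0.37, with 2 higher and 76 lower of 448. The sites were called in dox cells, and no list of sites in control cells was used here.

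Of the 77 sites in wide domains, 38 lay in domains between genes. The domain 100462 bp from Pkdcc, a secreted kinase gene (chr17:83107990-83114820), held 4 sites, with a fold enrichment of 44.6 in dox cells, a ratio of 0.84 to control cells and 100% covered. The one 64854 bp from Opa1 (chr16:29727982-29737336) also held 4, with 24.1 in dox and 34.3 in control cells (-0.39) and 85.2% covered. Those at Unc5b and 19028 bp from Fzd2 held 3 each. The Fzd2 one had 40.2 in dox and 31.4 in control cells. The highest ratio of all, 1.49, was in Sipa1l1 (34.5 in dox and 13.3 in control cells), with 1 site. Zfp277 (1.25) and Sparcl1 (1.10) held 1 each and Synpo, a gene of an actin-binding protein (1.10), held none. With the mean over summits only Sparcl1 of these 4 stayed above 1, at 1.08. The fifth domain past the limit, at rank 209, had 1.04 (-0.31 with the mean over summits) and no site, and its nearest gene is not analysed here. Ston1 (0.89, 1 site) and Nol4l (0.74, none) came next to Sufu, Pdgfrb and the Pkdcc domain.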

How the data were processed

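H3K27ac ChIP, GLI1 pull-down and input were sequenced in 2 samples per group, and the deposited lists pool the replicates of each group. The submitters' processing notes list MACS2 2.1.1, SAMtools 1.5, Bowtie2 2.3.2 and the build mm10; the role of each is not given in the sources used here. The deposited fold enrichment (a ratio), −log10 p and −log10 q values are the authors', as are the summit offset and a score that was not used. Peak calling pools reads, so width depends on depth, and the depth is unknown.

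Cover, ratios, nearest genes (RefSeq, GRCm38.p6) and motif letters were computed with Python 3.11.15, pandas 2.3.3 and numpy 2.4.6, and tested on simulated data. Peak numbers run with gaps, 999 in the dox and 937 in the control list, and the 1420 of 21887 genes that begin or end in such a gap were not analysed. The members and gene lists were chosen with earlier results of these data known. Genes were named by a rule: nearest genes of the 20 widest domains, list genes by width (up to 6 per list), the 10 lowest in cover, the 10 highest and lowest ratios, the 6 with most GLI1 sites, genes nearest to 3 or more domains and the edge of the choice; other names were chosen after their values were seen. Results at a few genes are not reported here.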

Additional observations from a re-analysis of the deposited data

How the results depend on the processing

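With 250 and 1000 domains in place of 500, the median cover was 91.8% and 89.1% and the median ratio -0.29 and -0.37. Dox intervals of −log10 q of at least 10 gave a median cover of 86.1%, 12.8% of domains under 50% covered, a median ratio of -0.48 and 0.41% higher. Joining dox intervals over 500 bp gave a median cover of 93.8%, and joining control intervals over 1000 bp before ranking gave 75.3%, with 22.4% at least 90% and 17.2% under 50% covered. The 500 intervals of highest fold enrichment had a median cover of 96.2% and 0.40% under 50%. Without centring the median ratio was -0.42 and 0.40% were higher. With the mean over summits 0.60% were higher and 9.40% lower, and the domain of rank 209 reversed, to -0.31. Of the 84 domains past the limit, 35 stayed past it with the mean over summits, and 81 without centring. A limit of 0.58 gave 3.6% higher and 34.6% lower. Among settings chosen after seeing the data, the highest value of any overlapping dox interval gave a median of -0.40, and the 500 widest dox intervals against the control list had 21.2% under 50% covered. The cause of these shifts was not tested. No paired analysis was possible because the authors pooled the replicates, and for the same reason no replicate could be left out. Depth limits narrow or weak intervals, and it sets widths.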

Other observations

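Of the 500 widest dox intervals, 264 overlapped no wide control domain, and 57.2% of these held a GLI1 site. The share was 39.6% of all 500 widest dox intervals, 2.05% of all other dox intervals and 10.4% of the wide control domains. Many of the 264 held shorter control intervals. Their median cover by control intervals was 63.0%, with 42 at least 90% covered and 34 without a control interval. The sites were called in the same dox cells. At Ptch1, the Hedgehog receptor gene and a standard GLI target, such an interval measured 20556 bp (chr13:63555749-63576304), with 5 sites and a fold enrichment of 50.69 in dox and 24.97 in control cells, and 30.0% of it was covered by control intervals. One in Slit3 had 46.6 in dox and 11.5 in control cells. At Foxf1 and Foxa2, genes of forkhead factors, it measured 13000 and 12428 bp with no control interval, and 1 site each. Others of the 264 were largely covered by control intervals, as at Irs2 (96.6%) and in Lpp (91.7%). These values were picked after they were seen.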
